A study of Mus musculus with 4 samples.

Results

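The cells described here are small intestinal crypt cells of the mouse that carried transcripts of at least 4 of a set of 6 genes. They were chosen from their raw counts of unique molecular identifiers (UMIs, each counting 1 captured transcript) in droplet single cell RNA-seq (scRNA-seq). A cell was taken when alpha-defensin transcripts (symbols beginning with Defa) made up under 20% of its UMIs, when at least 4 of the 6 genes Ccl9, Mt3, Ang, Ptpro, Rnase1 and Rnase4 had a UMI, and when fewer than 4 of the 8 genes Plet1, Tac1, Tat, Lrg1, C2cd4b, Hsd11b2, Fut2 and Stc2 had one. This gave 4768 Ccl9 Mt3 cells among 26498 cells, of which 15441 were under the alpha-defensin limit. The name does not mean that each cell carried both genes: at most 47.7% of the Ccl9 Mt3 cells in any library had a Mt3 UMI. The working name of these cells also held MHC class II and goblet-like, and both were checked against the data below.

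The study profiled crypts of mice in which Slc7a5, encoding an importer of leucine and other large neutral amino acids, had loxP sites around exon 1. The control libraries came from slc7a5 fl/fl littermates, which carry the floxed alleles without a recombinase. The slc7a5 IEC-KO libraries came from mice that also carried a Cre recombinase driven by the Villin promoter, which acts throughout the intestinal epithelium and not in a single cell type. All mice were 8 weeks old, and live EpCAM+ CD45- cells were sorted from enriched crypts. There were 2 libraries per genotype, numbered here as in the labels. The labels name 4 mice without saying how they were divided among the libraries, so the p-values below measure the spread between libraries, which may be technical.

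Goblet cells are secretory cells that fill their granules with the gel-forming mucin MUC2 and with small proteins such as trefoil factor, and they line both crypts and villi. At the crypt base they sit beside Paneth cells, which secrete alpha-defensins, lysozyme and angiogenin-type ribonucleases. MHC class II molecules present peptides taken up from outside the cell to helper T cells. Intestinal epithelial cells can carry them, as professional antigen presenting cells do.

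The libraries differed in ways that bear on each value below. Library fl/fl 1 held 3633 cells and fl/fl 2 held 3217, against 10004 in IEC-KO 1 and 9644 in IEC-KO 2. The lowest UMI total of a cell was 8909 in fl/fl 1 and 9670 in fl/fl 2, but 3843 in IEC-KO 1 and 5858 in IEC-KO 2. The Ccl9 Mt3 cells numbered 535 and 432 in the fl/fl libraries and 1766 and 2035 in the IEC-KO libraries, with median totals of 11074, 11691, 6659 and 8868 UMIs in that order. Both IEC-KO libraries were thus shallower per cell than both fl/fl libraries. No more than 8 cell barcodes of Ccl9 Mt3 cells were shared by any pair of libraries.

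The targeted gene did not separate the genotypes in these cells. Slc7a5 stood at 2.2 and 3.1 CPM (UMIs of the gene scaled to the summed UMIs of the class in that library) in the fl/fl libraries and at 2.5 and 3.9 CPM in the IEC-KO libraries. The groups overlapped (log2 fold change 0.48 ± 0.32, SE, edgeR quasi-likelihood adjusted p = 0.345). The 3′ counts lie outside the deleted exon and so do not check the deletion, and the libraries are called fl/fl and IEC-KO here as labelled. The female transcript Xist stood at 219.6 and 224.8 CPM in the fl/fl libraries and at 473.6 and 575.0 CPM in the IEC-KO libraries. Ddx3y, a Y-linked RNA helicase gene, stood at 13.7 and 15.2 against 5.7 and 4.8 CPM. The 4 Y-linked genes tested fell and Xist rose, and the sex makeup of the libraries cannot be told apart from genotype. The paper describes its knockout and fl/fl mice as matched for sex and age.

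Most goblet markers were measured in the Ccl9 Mt3 cells. Of 29 goblet markers, 27 had a UMI in at least 25% of the Ccl9 Mt3 cells of every library. Muc2, the mucin, stood at 3851, 3946, 4499.9 and 4953 CPM in fl/fl 1, fl/fl 2, IEC-KO 1 and IEC-KO 2, the order used for every set of 4 values below. In alpha-defensin-rich cells (20% or more of UMIs), Muc2 stood at 1164, 1075, 2383 and 2633 CPM. Atoh1, the transcription factor that sets the secretory fate, stood at 138.3, 127.5, 134.7 and 135.4 CPM in the Ccl9 Mt3 cells and at 25.4, 22.3, 60.5 and 62.4 CPM in the alpha-defensin-rich cells. The 5 mucus genes Muc2, Tff3, Fcgbp, Clca1 and Zg16 together reached 2% of UMIs in 94.2%, 97.0%, 92.5% and 94.99% of the Ccl9 Mt3 cells. Among the other cells under the alpha-defensin limit, 65.1%, 60.3%, 79.2% and 81.7% reached that mark. These marks do not tell the Ccl9 Mt3 cells from other goblet-like cells: of the 29 goblet markers, 0 were at least 1.5-fold above the other cells in every library.

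Markers of other types ranged from near 0 to well measured. Of 20 immune markers, 0 reached 25% of the Ccl9 Mt3 cells and 7 were at 0 in the summed counts of every library. Their summed level was 9.9, 8.0, 8.8 and 7.7 CPM, and Ptprc, which encodes CD45, stood at 0.31, 0, 0.22 and 0.15 CPM. Tuft markers reached 25% of cells for 0 of 12, enterocyte markers for 4 of 17, stem markers for 1 of 13, cycling markers for 4 of 19 and enteroendocrine markers for 4 of 15. Sct, the secretin gene, stood at 613.7, 390.1, 453.0 and 417.3 CPM against 122.5, 126.8, 229.5 and 214.4 CPM in the alpha-defensin-rich cells. It was the 1 enteroendocrine marker at least 1.5-fold above the other cells in the mean over the libraries, and 1 was lower by that size. Paneth markers reached 25% of cells for 14 of 15. In that mean 3 of them were at least 1.5-fold above the other cells: Guca2b, Mmp7 and Defa17, which itself enters the alpha-defensin limit. The Paneth markers summed to 78601, 83180, 113592 and 106359 CPM against 368401, 368608, 358948 and 343181 CPM in the alpha-defensin-rich cells. Gip, the hormone of K cells, had a UMI in 94.2%, 96.1%, 86.6% and 96.3% of the Ccl9 Mt3 cells, and its level in them was 256.6, 261.9, 779.0 and 587.8 CPM against 397.2, 428.2, 480.7 and 490.5 CPM in the alpha-defensin-rich cells. The part of free RNA in these counts was not tested, and a share of cells with a UMI is not read as expression for such abundant secreted products.

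The 6 genes of the rule chose the Ccl9 Mt3 cells, so their levels are a description with no test. Ccl9, a CC chemokine, stood at 875.1, 857.6, 1066.6 and 839.7 CPM. In the other mucus-rich cells (2% or more of UMIs from the 5 mucus genes) it stood at 404.1, 395.7, 439.1 and 355.9 CPM, and in mucus-poor cells at 78.1, 75.1, 125.9 and 116.2 CPM. Ccl9 was thus carried by goblet-like cells outside the rule as well, at a lower level in every library. Its neighbour Ccl6, a related chemokine and a goblet marker not used by the rule, stood at 3037, 3020.5, 2829 and 2671 CPM in the Ccl9 Mt3 cells and at 3084, 3183, 2647 and 2455 CPM in the other mucus-rich cells.

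The start sites of Ccl9 and Ccl6 lie 14451 bases apart on the minus strand of chromosome 11. Their promoter windows are shown side by side because the rule counts Ccl9 and not its neighbour. All windows here are RefSeq sequence of build GRCm38.p6, from 250 bases before to 50 bases after the start, and all 6 genes of the rule had one. Ccl9 is at chr11:83578587-83578886 and Ccl6 at chr11:83593038-83593337, both minus strand. The capitals mark the longest run the windows share, 13 bases.
Ccl9: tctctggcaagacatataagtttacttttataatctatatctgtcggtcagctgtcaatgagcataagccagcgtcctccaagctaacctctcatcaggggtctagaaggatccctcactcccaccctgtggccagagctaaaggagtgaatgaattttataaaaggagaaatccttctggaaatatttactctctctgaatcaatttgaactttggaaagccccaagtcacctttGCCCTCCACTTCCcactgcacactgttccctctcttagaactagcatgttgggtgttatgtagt
Ccl6: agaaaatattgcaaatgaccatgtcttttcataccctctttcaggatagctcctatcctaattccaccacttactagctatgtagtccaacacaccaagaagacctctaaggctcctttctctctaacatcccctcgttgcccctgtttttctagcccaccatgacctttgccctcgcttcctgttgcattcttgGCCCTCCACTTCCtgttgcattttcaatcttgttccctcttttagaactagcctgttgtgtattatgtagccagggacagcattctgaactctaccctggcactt

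Ang and Rnase4 encode secreted ribonucleases of the RNase A family, angiogenin and RNase 4, and their promoter window is shown because both genes of the rule start from it. The window is at chr14:51090827-51091126, plus strand, and is printed without capitals, since no motif is marked in it. Rnase4 has 2 windows in the table, of which this is the shared one.
Ang and Rnase4: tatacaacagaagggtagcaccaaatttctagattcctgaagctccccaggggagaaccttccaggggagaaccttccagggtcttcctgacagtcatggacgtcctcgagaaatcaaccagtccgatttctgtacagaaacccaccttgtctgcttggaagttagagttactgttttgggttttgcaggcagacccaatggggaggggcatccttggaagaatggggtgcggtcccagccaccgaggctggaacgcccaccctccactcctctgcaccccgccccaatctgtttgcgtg
Counts of Ang and Rnase4 are therefore from transcripts that can share a first exon, and how the counting divided them is not given in the sources used here. Ang stood at 224.9, 213.2, 319.5 and 252.9 CPM, and in the other mucus-rich cells at 95.8, 94.8, 118.3 and 98.7 CPM. Rnase4 stood at 185.7, 167.5, 241.3 and 206.8 CPM, against 81.9, 79.7, 86.7 and 74.8 CPM. Both were higher in the Ccl9 Mt3 cells in each library. Rnase1, the pancreatic-type ribonuclease, stood at 308.8, 299.0, 643.6 and 480.8 CPM, against 88.1, 74.3, 194.3 and 162.8 CPM in the other mucus-rich cells. In the alpha-defensin-rich cells Rnase1 stood at 224.6, 181.4, 510.3 and 430.0 CPM and Ccl9 at 190.7, 180.0, 300.6 and 277.7 CPM. Ang4, the Paneth cell angiogenin, is not in the rule and stood at 1284, 1286, 594.7 and 559.9 CPM in the Ccl9 Mt3 cells against 6389, 6045, 3000.2 and 2409 CPM in the alpha-defensin-rich cells.

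Mt3, a metallothionein otherwise known from neurons, stood at 64.0, 57.6, 70.3 and 68.3 CPM and was the rule gene that set the Ccl9 Mt3 cells furthest apart from other mucus-rich cells after Ptpro. In those other cells it stood at 11.9, 11.4, 13.8 and 12.7 CPM and in mucus-poor cells at 3.8, 2.2, 4.2 and 3.6 CPM. The alpha-defensin-rich cells had 7.3, 6.4, 9.9 and 12.8 CPM of Mt3. A Mt3 UMI was found in 47.7%, 46.3%, 37.9% and 43.7% of the Ccl9 Mt3 cells. All cells under the alpha-defensin limit with at least 4 of the 8 excluding genes are called Plet1 cells here. They were taken whether or not they had 4 of the 6 genes of the rule, of which they carried 3.46, 3.63, 2.75 and 3.29 in the mean. The Plet1 cells had 58.5, 51.9, 27.4 and 31.1 CPM of Mt3, in the fl/fl libraries close to the Ccl9 Mt3 cells. Ptpro, a receptor tyrosine phosphatase, stood at 23.8, 18.7, 55.9 and 37.2 CPM, against 1.2, 2.7, 6.7 and 5.4 CPM in the other mucus-rich cells. The windows of Mt3 and of Mt1, the widely expressed family member, are shown because only Mt3 is a gene of the rule. Mt1 was free to vary and had a large difference between genotypes. Capitals mark the core of the metal response element, searched as TGCACNC or TGCGCNC on both strands and held by 25.7% of 32817 promoter windows of this length. Mt3 is at chr8:94152357-94152656 with 1 match and Mt1 at chr8:94178839-94179138 with 3, both plus strand.
Mt3: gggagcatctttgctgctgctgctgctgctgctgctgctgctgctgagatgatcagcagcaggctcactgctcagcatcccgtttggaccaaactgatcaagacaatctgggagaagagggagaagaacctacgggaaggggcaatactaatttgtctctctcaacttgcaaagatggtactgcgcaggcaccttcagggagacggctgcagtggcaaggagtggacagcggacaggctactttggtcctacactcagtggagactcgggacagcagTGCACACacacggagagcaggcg
Mt1: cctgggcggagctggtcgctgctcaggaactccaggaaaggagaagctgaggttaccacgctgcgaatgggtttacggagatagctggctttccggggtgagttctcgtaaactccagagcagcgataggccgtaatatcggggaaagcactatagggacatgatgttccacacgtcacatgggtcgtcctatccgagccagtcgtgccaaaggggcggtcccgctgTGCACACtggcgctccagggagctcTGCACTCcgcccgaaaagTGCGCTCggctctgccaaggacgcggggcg
Mt1 stood at 243.5, 253.0, 960.3 and 959.4 CPM in the Ccl9 Mt3 cells. A match in the window is a description of its letters and not a bound site.

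**Figure D1:**
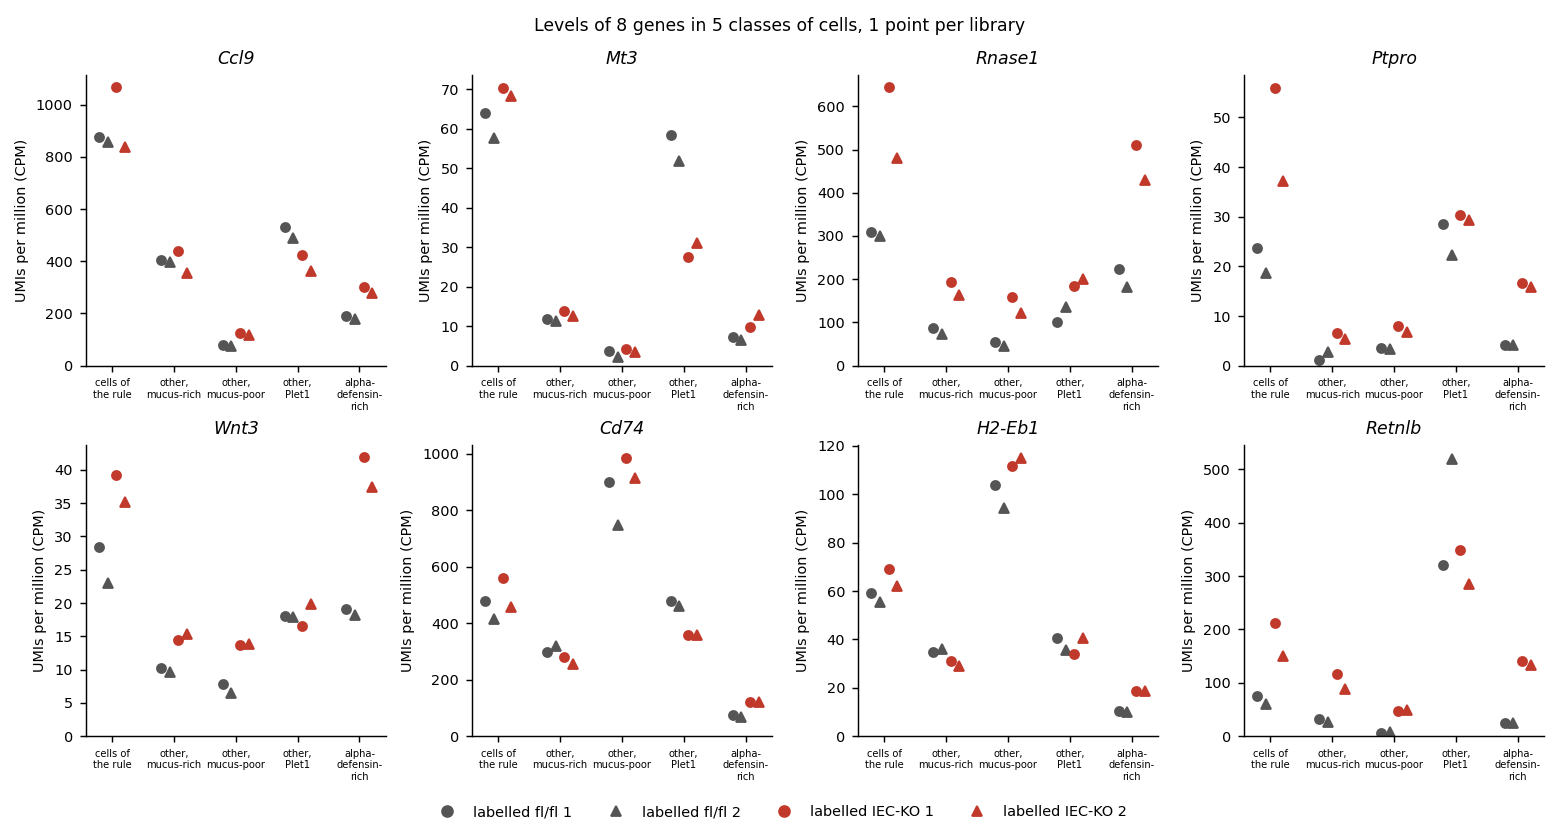
Level of 8 genes in CPM (vertical axis, linear from 0) in 5 classes of cells, with 1 point for each library. Ccl9, Mt3, Rnase1 and Ptpro, which the rule used, and Wnt3, which it did not, were higher in the Ccl9 Mt3 cells than in the other mucus-rich cells in every library, whereas Cd74 and H2-Eb1 were highest in the mucus-poor cells.

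Apart from the rule's own genes, few genes set these cells apart. At a 2-fold difference in every library, with a UMI in at least 25% of the higher class, 5 of 2113 genes measured were higher than in the other cells under the alpha-defensin limit (0.237%), all of them genes of the rule. At the same size 9 genes were lower (0.426%), among them Rbp2, Fabp1, Spink1, Apoa1, Fabp6, Prap1, 2200002D01Rik and Reg3b, several of which are enterocyte genes of lipid and retinol handling. Fabp1, the fatty acid binding protein, stood at 411.0, 418.9, 243.4 and 277.2 CPM against 1470.3, 1876, 909.5 and 762.8 CPM. The other mucus-rich cells alone had 448.8, 383.8, 259.9 and 307.7 CPM, a difference short of 2-fold in each library. Against those cells 1 of 2098 genes was lower by that size (0.0477%), Clca1, a calcium-activated mucus processing factor. Clca1 is 1 of the 5 mucus genes that chose those cells, so its difference is a description.

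A wider call, 1.5-fold in every library with a UMI in at least 10% of cells, was set after these values were seen, and the genes named from it were chosen with their values known. Against all other cells under the alpha-defensin limit it held 20 of 4508 genes upward (0.444%). Among them were the 6 genes that the rule counts and Defa17, which enters its alpha-defensin limit. It held 85 downward (1.89%), among them 12 of the 13 enterocyte genes measured. Against the other mucus-rich cells it held 26 of 4459 genes upward (0.583%), of which 6 were the rule's, and 14 downward (0.314%). Those mucus-rich cells had median totals of 10217, 11237, 5404 and 7510 UMIs, under the Ccl9 Mt3 cells in each library. The part of depth in this comparison was not tested. Wnt3, a Wnt ligand that Paneth cells supply to the stem cell niche, stood at 28.4, 23.003, 39.2 and 35.1 CPM against 10.2, 9.6, 14.5 and 15.3 CPM. On CPM + 1 its level was at least 2.22-fold higher in each library, and the alpha-defensin-rich cells had 19.1, 18.3, 42.0 and 37.4 CPM. Ephb3, a receptor that holds Paneth cells at the crypt base, stood at 16.8, 14.9, 32.4 and 29.8 CPM against 10.2, 8.4, 13.1 and 15.1 CPM. Cd24a, a surface antigen used to sort Paneth cells, stood at 624.2, 626.9, 974.4 and 849.4 CPM against 376.2, 390.4, 546.2 and 509.8 CPM. For each of the 3 genes the Ccl9 Mt3 cells were higher than the other mucus-rich cells in every library. The alpha-defensin-rich cells of the IEC-KO libraries had a similar level. In the fl/fl libraries those cells had less Wnt3, and less Cd24a at 412.1 and 386.6 CPM. None of the 3 genes passed this call against the Plet1 cells. Of 15 Paneth genes 1, Guca2b, passed this call against the other mucus-rich cells and 0 were lower by it, with a median log2 ratio of 0.35 beside -0.0031 over all genes. Summed, the list stood at 78601, 83180, 113592 and 106359 CPM summed in the Ccl9 Mt3 cells against 63932, 67591, 67858 and 72327 CPM in the other mucus-rich cells, a sum in which Defa24 was the most abundant gene, and its part in these differences was not tested.

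Kit, the stem cell factor receptor of deep crypt secretory cells, stood at 23.6, 28.1, 28.2 and 28.4 CPM in the Ccl9 Mt3 cells, at 15.4, 20.3, 18.8 and 19.5 CPM in the other mucus-rich cells and at 5.8, 5.4, 13.8 and 15.6 CPM in the alpha-defensin-rich cells. Kit passed 1.5-fold against all other cells but not against the mucus-rich ones. St3gal1, a sialyltransferase that caps O-glycans, stood at 24.1, 19.7, 37.7 and 37.6 CPM against 11.9, 9.6, 18.0 and 16.2 CPM in the other mucus-rich cells. Fam46c and Bex1 were also higher, Fam46c at 17.9, 19.6, 32.5 and 25.6 CPM against 4.9, 9.6, 9.9 and 9.5 CPM. Bex1 stood at 15.9, 14.7, 28.9 and 25.9 CPM against 6.8, 7.7, 13.6 and 14.1 CPM. Lbh, Fam213a, Cib2, Mecom, Guca2b, Vgll4, Aqp1 and Tpd52l1 completed the set with Retnlb, H2-Eb1 and the cycle-linked Cdca7, Lockd, Hist1h2ap and Ube2c.

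Of the 14 genes that were lower than in the other mucus-rich cells, 3 are on the goblet list and Tac1 is an excluding gene of the rule. Zg16, a lectin of goblet granules, stood at 12009, 14539, 7018 and 8608 CPM against 28234, 28515, 21167 and 20338 CPM. Clca1 stood at 487.2, 582.7, 283.0 and 374.5 CPM against 1224, 1169.7, 881.7 and 907.4 CPM. Krt20, a keratin of differentiated epithelium, stood at 109.6, 113.9, 51.7 and 64.4 CPM against 190.9, 192.0, 108.8 and 107.6 CPM. In all 4 libraries each was lower in the Ccl9 Mt3 cells. The goblet list as a whole lay at a median log2 ratio of -0.27 against the mucus-rich cells, with 0 of 29 genes higher and 3 lower, beside a median of -0.0031 over all 4459 genes.

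**Figure D2:**
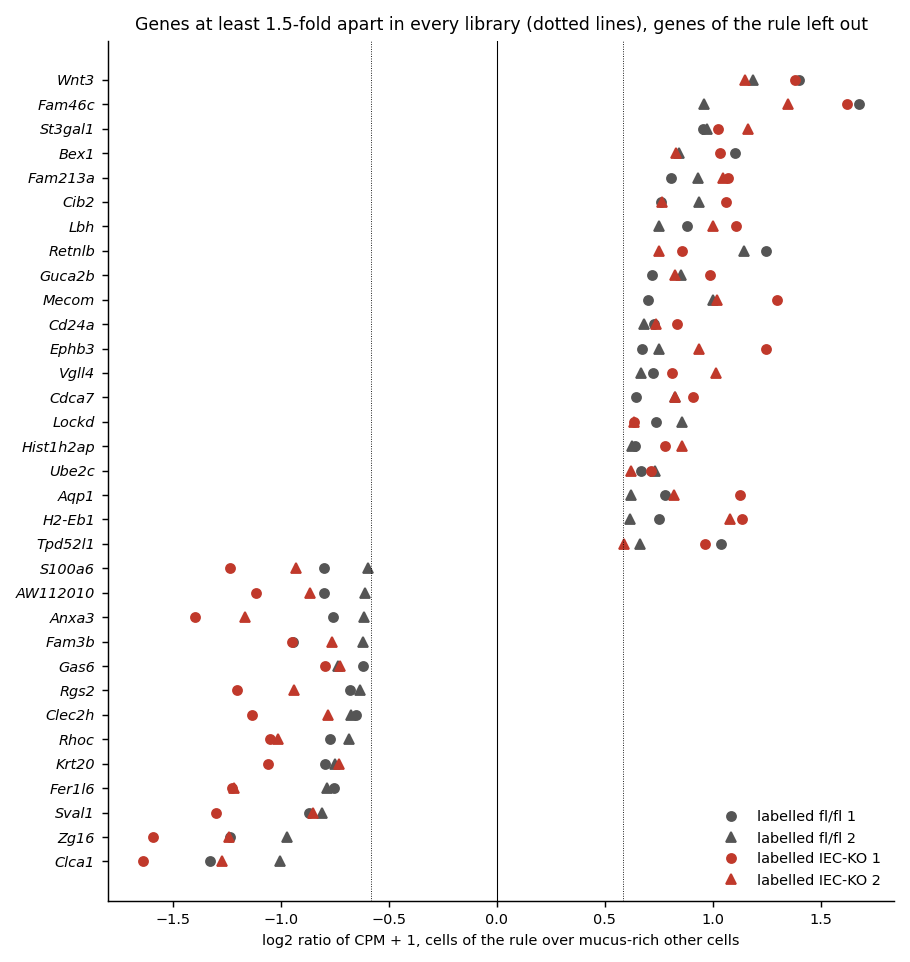
Log2 ratio of CPM + 1 in the Ccl9 Mt3 cells over the other mucus-rich cells (horizontal axis) for genes at least 1.5-fold apart in every library and not used by the rule, with 1 point per library. Wnt3 lies at 2.22-fold or more in all 4 libraries, Fam46c is spread from 1.95-fold to 3.19-fold, and Zg16 and Clca1 lie furthest left. Zg16 and Clca1 are among the mucus genes that chose the mucus-rich cells.

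The Plet1 cells were close to the Ccl9 Mt3 cells in Mt3 in the fl/fl libraries only, and had less Ccl9 in every library. Against the Plet1 cells, 34 of 4717 genes were at least 1.5-fold higher (0.721%) and 42 lower (0.89%). Wnt3, Ephb3, Cd24a, Bex1, Guca2b and H2-Eb1 were in neither set. All 8 excluding genes were among the lower ones, by the rule. The antimicrobial lectins Reg3g and Reg3b were lower as well, with the nearest library at 2.92-fold and 2.64-fold. Of 12 measured cycling genes, 6 were higher in the Ccl9 Mt3 cells. Retnlb, a resistin-like antimicrobial protein of goblet cells, was higher in the Plet1 cells, at 321.1, 519.6, 349.0 and 285.8 CPM against 75.4, 60.7, 211.2 and 150.2 CPM in the Ccl9 Mt3 cells. The other mucus-rich cells had 31.2, 26.9, 116.1 and 88.9 CPM, so the Ccl9 Mt3 cells lay between those classes.

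MHC class II transcripts did not set the Ccl9 Mt3 cells apart from all other cells, and that word is left out of their name here. Cd74, the invariant chain that guides class II molecules to the endosome, stood at 480.7, 413.5, 559.5 and 455.9 CPM. In all other cells under the alpha-defensin limit it stood at 529.7, 507.6, 434.2 and 392.6 CPM, so the order turned between the genotypes. Within the other cells the mucus-poor ones had the most, 902.1, 747.2, 985.6 and 913.1 CPM, and the mucus-rich ones had 299.7, 319.6, 281.1 and 254.1 CPM. The Ccl9 Mt3 cells lay between them in every library. H2-Aa, a class II alpha chain, showed the same order, with 66.2, 62.1, 79.5 and 66.3 CPM in the Ccl9 Mt3 cells, 44.7, 36.4, 35.0 and 34.2 CPM in the mucus-rich cells and 101.9, 92.3, 114.6 and 99.3 CPM in the mucus-poor cells.

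H2-Eb1, a class II beta chain, was the only gene of this list at least 1.5-fold above the mucus-rich cells in every library. It stood at 59.2, 55.6, 69.2 and 62.2 CPM against 34.7, 36.0, 31.0 and 28.9 CPM, and the mucus-poor cells had 103.8, 94.5, 111.6 and 115.1 CPM. Of the 11 genes listed 6 were measured at this setting, with a median log2 ratio of 0.12 against all other cells and 0.70 against the mucus-rich cells, beside -0.071 and -0.0031 over all genes measured. Of the 11 genes 3 were at 0 in every sum, H2-Oa, H2-Ob and H2-Eb2, the first 2 of which shape peptide loading in B cells. Ciita, the master regulator of class II transcription, stood at 0.6, 0.2, 0.6 and 0.5 CPM. Defining immune markers were near 0 in the same cells, as given above. The H2-Eb1 window, at chr17:34305617-34305916 on the plus strand, is shown for its Y box in capitals, the letters CTGATTGG searched on both strands and held by 4.09% of windows.
H2-Eb1: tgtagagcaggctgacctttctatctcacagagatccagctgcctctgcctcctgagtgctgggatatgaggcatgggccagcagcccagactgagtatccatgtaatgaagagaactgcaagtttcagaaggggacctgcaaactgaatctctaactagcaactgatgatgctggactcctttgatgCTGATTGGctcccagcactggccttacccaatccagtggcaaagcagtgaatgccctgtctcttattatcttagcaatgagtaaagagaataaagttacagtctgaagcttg

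At 1 fixed depth of 3843 UMIs per cell, 28.0%, 29.6%, 21.9% and 22.8% of the Ccl9 Mt3 cells had no UMI of the class II genes. In the alpha-defensin-rich cells 58.0%, 60.3%, 45.3% and 43.3% had none. Those cells had median totals of 45328.5, 51663, 11753 and 17427.5 UMIs before thinning. They were deeper than the Ccl9 Mt3 cells in every library, so their share does not measure the background of the latter. Cells with 3 or more such UMIs made up 34.0%, 35.2%, 44.8% and 41.4% of the Ccl9 Mt3 cells, 26.9%, 29.9%, 23.8% and 21.9% of the other mucus-rich cells and 3.83%, 4.66%, 9.84% and 9.79% of the alpha-defensin-rich cells. In every library the Ccl9 Mt3 cells had a lower share without a class II UMI than the alpha-defensin-rich cells. Nothing on free RNA is read from that difference. The highest single Ccl9 Mt3 cells had 38, 33, 31 and 32 such UMIs. The mucus-poor cells had the larger share with 3 or more, at 49.8%, 48.3%, 54.1% and 51.9%. All other cells under the alpha-defensin limit together had 36.2%, 38.3%, 31.0% and 29.6%, above the Ccl9 Mt3 cells in the fl/fl libraries and below them in the IEC-KO libraries. In fl/fl 2 fewer of the other mucus-rich cells, 26.0%, had none.

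Across the limit of the rule, Cd74 and Muc2 did not move in the same direction in all 4 libraries. Cells with 3 of the 6 genes, just outside, numbered 369, 284, 1360 and 1377, and cells with 4, just inside, numbered 336, 275, 1152 and 1295. Cd74 stood at 461.2, 407.1, 375.0 and 350.3 CPM just outside and at 442.7, 368.6, 497.8 and 383.3 CPM just inside. Muc2 stood at 4020, 3883, 5173 and 5566 CPM just outside and at 3997, 4086, 4651 and 5188 CPM just inside. Neither gene stepped in the same direction in all 4 libraries. Retnlb was higher just inside in each, at 40.9, 46.1, 174.2 and 123.9 CPM against 31.8, 21.9, 149.0 and 98.5 CPM.

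The cells with all 6 genes numbered 25, 21, 106 and 151 and had Cd74 at 998.1, 858.2, 843.4 and 654.7 CPM, in each library above the cells with 4 or 5 genes. Retnlb stood at 77.7, 43.1, 280.9 and 155.0 CPM in the cells with 5 genes and at 494.3, 344.0, 237.6 and 317.7 CPM in those with 6, so in IEC-KO 1 it was highest with 5. Muc2 stood at 3599, 3748, 4290.2 and 4613 CPM with 5 genes and at 3744, 3495, 4046 and 4490 CPM with 6, in each library under the cells with 4. With all 6 genes the median UMI total was 11074, 12557, 7485 and 10620, against 10867, 11568, 6446 and 8501 with 4, so depth moved with the number of genes. The part of depth in these differences was not tested.

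**Figure D3:**
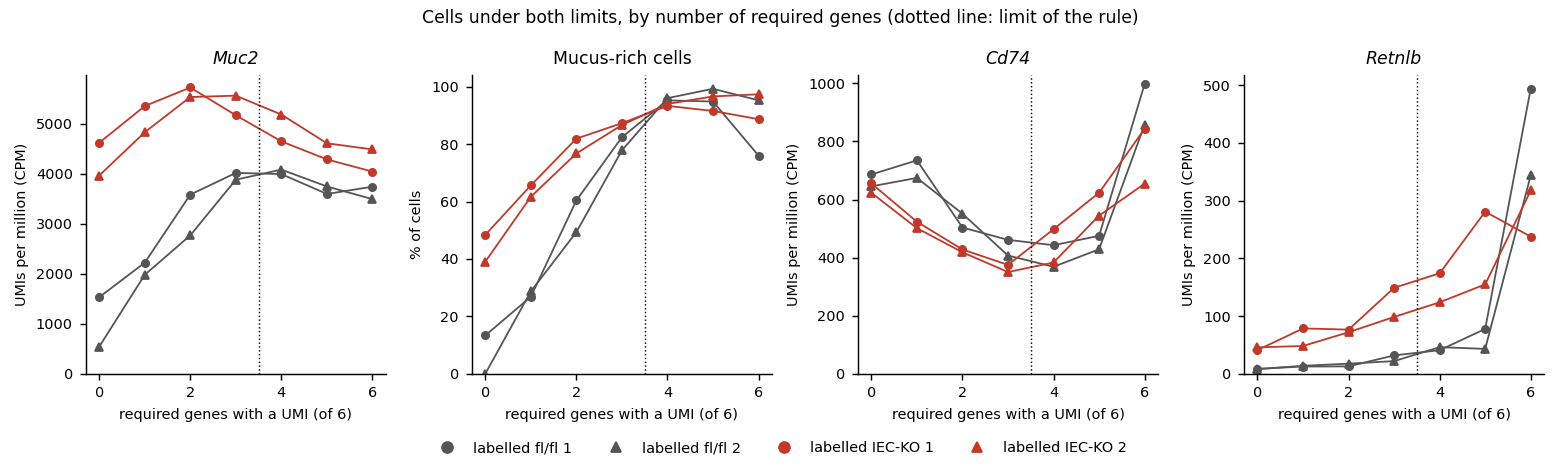
Muc2, Cd74 and Retnlb in CPM and the share of mucus-rich cells in percent (vertical axes), 1 line per library. The horizontal axis gives the number of the 6 genes of the rule with a UMI. Right of the dotted limit Cd74 and Retnlb were highest or near highest in cells with all 6 genes, while Muc2 was lower there than in cells with 4.

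The first question between the genotypes was whether their share of cells differed. The Ccl9 Mt3 cells made up 35.8% (exact binomial 95% interval 33.4 to 38.3) of the cells under the alpha-defensin limit in fl/fl 1 and 36.7% (33.9 to 39.5) in fl/fl 2. In IEC-KO 1 they made up 26.4% (25.4 to 27.5) and in IEC-KO 2 33.4% (32.2 to 34.6). The intervals cover counting error only. The means were 36.3% ± 0.593 and 29.9% ± 4.93 (SD, n = 2 each), and a 2-sided exact permutation test gave p = 0.333, the smallest that 2 against 2 libraries allow. The order turned with depth. With each cell thinned to 3843 UMIs the share was 9.46%, 8.91%, 14.9% and 13.3%, and among cells of at least 9670 UMIs it was 38.9%, 36.7%, 56.2% and 48.0%. The IEC-KO libraries thus had the lower share as deposited and the higher share with cells thinned or above that limit, which 88.1%, 100%, 28.3% and 50.4% of all cells of the libraries reached, and no direction is read from it.

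Cell cycle transcripts marked many of the Ccl9 Mt3 cells, and fewer of them in the IEC-KO libraries. At 3843 UMIs per cell, 41.3%, 42.1%, 20.7% and 22.1% of the Ccl9 Mt3 cells had a UMI of at least 4 of 19 cell cycle genes. The other mucus-rich cells had 26.0%, 25.5%, 10.9% and 11.1%, and the mucus-poor cells 54.7%, 52.0%, 33.7% and 38.6%. The alpha-defensin-rich cells had 0.794%, 0.687%, 0.933% and 1.18%. They were deeper before thinning, as given above, so this share does not measure the background of the Ccl9 Mt3 cells. At this depth the Ccl9 Mt3 cells lay above the other mucus-rich cells and under the mucus-poor ones in every library. Among cells of at least 9670 UMIs the shares were 47.3%, 42.1%, 19.3% and 27.4% in the Ccl9 Mt3 cells and 32.2%, 25.5%, 24.6% and 22.3% in the other mucus-rich cells. There the genotypes were apart too, but in IEC-KO 1 the mucus-rich cells, of which 126 were left, had the higher share. Lgr5, the stem cell receptor, stood at 4.8, 5.3, 3.8 and 4.1 CPM, against 12.2, 9.8, 8.6 and 5.6 CPM in the mucus-poor cells.

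**Figure D4:**
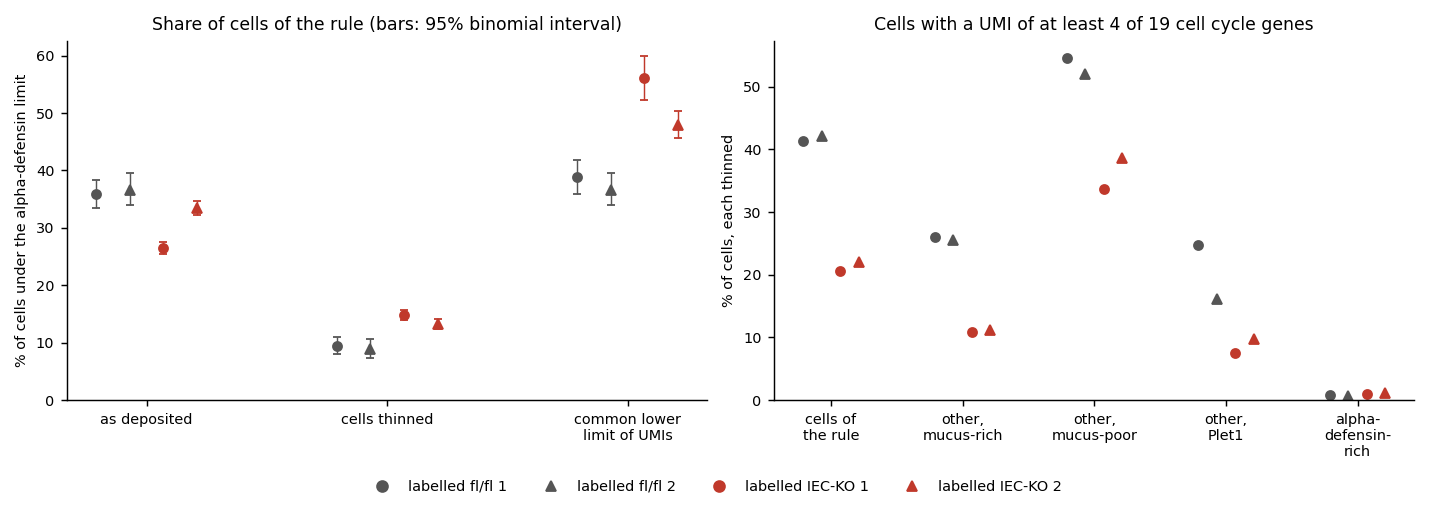
Left, share of Ccl9 Mt3 cells among cells under the alpha-defensin limit in percent with 95% exact binomial intervals, at 3 settings of depth; the IEC-KO libraries lie lower as deposited and higher with cells thinned and among cells of at least 9670 UMIs. Right, share of cells with a UMI of at least 4 of 19 cell cycle genes in percent, cells thinned to 3843 UMIs, in 5 classes; in the Ccl9 Mt3 cells the fl/fl libraries lie at 41.3% and 42.1% and the IEC-KO libraries at 20.7% and 22.1%.

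The next question was which genes differed between the genotypes within the Ccl9 Mt3 cells. UMIs were summed per library and 10909 genes were tested with edgeR's quasi-likelihood test, with p-values adjusted over all of them. At an adjusted p under 0.05, 926 genes were higher in the IEC-KO libraries (8.49%) and 868 lower (7.96%), together 16.4%, and the median log2 fold change over all genes was -0.00055. The libraries of the genotypes did not overlap in 60.1% of all genes tested, so a lack of overlap alone says little. Without fl/fl replicate 1 the counts were 548 and 446, and without fl/fl replicate 2 they were 572 and 540. Named genes were the 10 with the largest rises and the 10 with the largest falls among those called, not overlapping and at a mean of at least 20 CPM.

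Of 37 tested targets of ATF4, the transcription factor that cells raise when amino acids are short or protein folding is disturbed, 36 rose and 0 fell, with a median log2 fold change of 1.5. Trib3, a pseudokinase that feeds back on ATF4, stood at 0.31, 1.1, 61.7 and 64.5 CPM and rose by 6.67 ± 0.21 (log2, SE, edgeR adjusted p = 2.04e-18). Its fl/fl level rests on 2 and 6 UMIs. Chac1, which degrades glutathione, stood at 1.6, 1.8, 43.5 and 46.0 CPM and rose by 4.87 ± 0.17 (edgeR adjusted p = 1.77e-17). The IEC-KO libraries were far above the fl/fl libraries for both, with no overlap.

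Ddit3, the stress factor CHOP, stood at 12.7, 10.1, 91.2 and 94.5 CPM and rose by 3.14 ± 0.11 (edgeR adjusted p = 1.77e-17). Atf5, a related factor, stood at 8.4, 7.1, 94.4 and 101.8 CPM and rose by 3.79 ± 0.12 (edgeR adjusted p = 2.04e-18). Phgdh and Psph, the first and last enzymes of serine synthesis, rose by 2.45 and 2.36, and Cth, which makes cysteine, by 2.55. Asns, asparagine synthetase, stood at 68.7, 62.7, 150.5 and 147.7 CPM and rose by 1.31 ± 0.08. Mars, the methionine tRNA ligase, was the 1 target not called, at 20.2, 21.9, 22.1 and 22.9 CPM. Adm2, a peptide hormone gene outside that list, rested on 2 and 3 UMIs in the fl/fl libraries and on 730 and 1022 in the IEC-KO libraries, and rose by 7.06 ± 0.22.

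The Chac1 window, at chr2:119350992-119351291 on the plus strand, is shown because Chac1 is among the largest rises and its promoter holds the letters TGATGNAA in capitals, a core bound by ATF4 with partner factors. These letters, searched on both strands, were in 3.97% of windows, and Trib3 also had 1 match.
Chac1: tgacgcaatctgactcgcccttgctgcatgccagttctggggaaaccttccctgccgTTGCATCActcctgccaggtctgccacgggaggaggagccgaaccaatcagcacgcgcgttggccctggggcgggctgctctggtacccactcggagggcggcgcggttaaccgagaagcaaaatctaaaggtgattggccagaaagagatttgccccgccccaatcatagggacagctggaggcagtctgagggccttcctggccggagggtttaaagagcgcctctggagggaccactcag

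Slc3a2, the heavy chain that partners SLC7A5 at the membrane, stood at 43.2, 39.1, 79.5 and 83.0 CPM and rose by 1.11 ± 0.09 (edgeR adjusted p = 3.29e-10). Of 11 transporter genes tested 2 rose, Slc3a2 and Slc1a5, and 1 fell, Slc7a9, with a median of -0.20, beside the 16.4% called over all genes. Slc7a11, the cystine importer, rose from 2.0 and 2.7 CPM to 12.8 and 11.6 CPM. Mt1 rose by 2.08 ± 0.08 and Mt2 by 0.71 ± 0.08 (edgeR adjusted p = 7.73e-17 and 3.25e-07), and of 22 metallothionein and zinc transporter genes tested 7 rose and 1 fell.

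**Figure D5:**
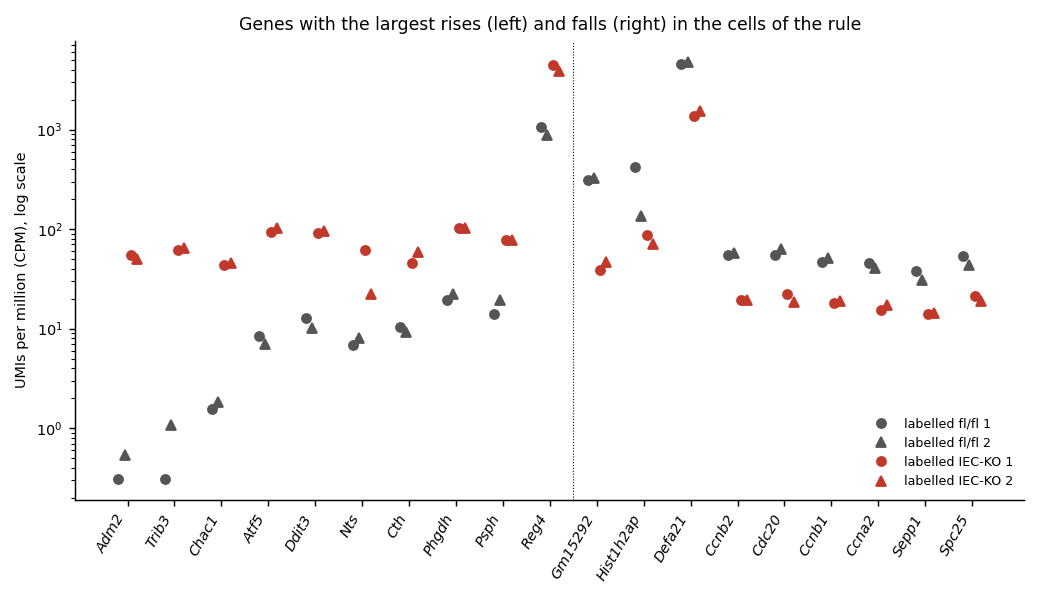
Level in CPM (vertical axis, log scale) in the Ccl9 Mt3 cells of each library for named genes with the largest rises and falls in the IEC-KO libraries. Trib3 and Adm2 lie at or near 1 CPM or lower in the fl/fl libraries and over 50 CPM in the IEC-KO libraries, and Hist1h2ap has its fl/fl libraries far apart.

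Secreted products of the Paneth and goblet lines moved in both directions. Reg4, a lectin of secretory crypt cells, stood at 1066, 883.4, 4437 and 3844 CPM and rose by 2.22 ± 0.10 (edgeR adjusted p = 3.37e-15). In the alpha-defensin-rich cells it stood at 1091, 962.4, 7013 and 6009 CPM. Of 15 Paneth genes tested 8 rose, among them Itln1 and Habp2, and 5 fell, among them Ang4 (log2 fold change -1.02 ± 0.08), beside 16.4% called over all genes. Falls included alpha-defensin-type genes: Gm15292 fell by 2.77 ± 0.09, from 311.9 and 328.6 CPM to 38.6 and 46.7 CPM and Defa21 by 1.55 ± 0.09. In the alpha-defensin-rich cells Gm15292 stood at 2524, 2641, 269.0 and 282.1 CPM, moving the same way, and the part of free RNA from those cells was not tested. Near-identical alpha-defensin copies can also divide reads between them, so values of single members are uncertain.

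Goblet genes went both ways: 10 of 29 rose and 7 fell, with a median log2 fold change of 0.02, beside 16.4% called over all genes. With cells thinned 1 rose and 1 fell. Muc2 rose by 0.41 ± 0.09, and the goblet regulators Spdef and Foxa3 by 0.37 ± 0.08 and 0.50 ± 0.08, with the IEC-KO libraries above the fl/fl libraries in each. The Muc2 call was lost without either fl/fl library, and the list then had 6 rises and 4 falls without fl/fl replicate 1 and 4 rises and 3 falls without fl/fl replicate 2. Scaled by library size alone the list had 8 rises and 11 falls. Zg16, Clca1 and Fcgbp fell by 0.63 ± 0.11, 0.57 ± 0.10 and 0.34 ± 0.10. Scin, an actin severing protein of goblet cells, fell by 0.71 ± 0.09. Retnlb rose by 1.54 ± 0.12 (edgeR adjusted p = 3.27e-10) from 75.4 and 60.7 CPM to 211.2 and 150.2 CPM. With cells thinned before the rule was applied its log2 fold change was 0.12 and was not called. In the alpha-defensin-rich cells Retnlb stood at 24.7, 23.9, 139.9 and 133.1 CPM. Ccl25, a chemokine for gut-homing lymphocytes, fell by 0.57 ± 0.09.

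Of 19 cell cycle genes tested 14 fell and 0 rose, with a median log2 fold change of -0.87. Ccnb2, a mitotic cyclin, stood at 54.9, 58.0, 19.2 and 19.5 CPM and fell by 1.41 ± 0.09 (edgeR adjusted p = 1.30e-11). Ccnb1, Cdc20, Ccna2 and Spc25 were also among the 10 largest falls. Mki67, the proliferation marker, stood at 64.5, 62.9, 34.2 and 36.4 CPM and fell by 0.72 ± 0.09. Hist1h2ap, a replication histone, fell by 1.69 ± 0.24, but 1 library decided its size: it stood at 418.2 and 135.3 CPM in the fl/fl libraries and at 86.8 and 70.9 CPM in the IEC-KO libraries, and without fl/fl replicate 1 it fell by 0.66. Dll1, the Notch ligand of early secretory cells, fell by 0.71 ± 0.10 and Ascl2, a stem cell factor, by 0.98 ± 0.27, while Sox9 rose by 0.61 ± 0.09. Of 13 stem cell genes tested 2 rose and 1 fell, a share near the 16.4% called over all genes.

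Of 17 enterocyte genes tested 14 fell, with a median of -0.69, and 0 rose, beside 7.96% of all genes lower and 8.49% higher. The falls were 3 of 14 with cells thinned, where 84 of 7648 genes fell and 101 rose in all, 5 of 17 with at least 5 of the 6 genes and 8 of 17 at the common lower limit. Apoa1, an apolipoprotein, stood at 562.1, 416.1, 222.3 and 286.0 CPM. The list summed to 2642, 2350, 1351 and 1571 CPM in the Ccl9 Mt3 cells and to 14115, 15190, 12684 and 12418 CPM in the mucus-poor cells. Of 14 enteroendocrine genes tested 8 rose and 0 fell, with a median of 0.61, but 1 of 10 rose with cells thinned, 3 of 14 with DESeq2, 4 of 14 at the common lower limit and 5 of 15 without fl/fl replicate 2. With at least 5 of the 6 genes 4 of 12 rose and 2 fell. The hormone list summed to 1247, 1068, 1802 and 1531 CPM against 491.1, 979.8, 5652 and 4834 CPM in the mucus-poor cells. The part of free RNA in either list was not tested. Nts, the gene of neurotensin, rose by 2.60 ± 0.35 with IEC-KO 1 at 61.6 CPM and IEC-KO 2 at 22.5 CPM. Without IEC-KO replicate 1 it was 1.73 and without IEC-KO replicate 2 it was 3.22, and with cells thinned it was 1.67 and was not called.

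Most ribosomal protein genes tested, and 4 of the 6 class II genes tested, were called higher, by small amounts. Of 80 ribosomal protein genes tested 71 rose and 0 fell, with a median log2 fold change of 0.40, but 18 rose without fl/fl replicate 1 and 13 without fl/fl replicate 2. Cd74, H2-Aa, H2-Ab1 and H2-Eb1 rose by 0.32, 0.31, 0.27 and 0.32 (edgeR adjusted p = 0.0167, 0.0212, 0.0181 and 0.0112), which are 4 of the 6 class II genes tested. The Cd74 libraries overlapped, with fl/fl 1 at 480.7 CPM above IEC-KO 2 at 455.9 CPM. With cells thinned the change of H2-Aa turned to the other direction. The class II calls were lost, to 0 of 6, when cells were thinned, when library size alone set the scale, with DESeq2, without fl/fl replicate 2 and without IEC-KO replicate 1. Of 19 lysosomal and regulatory genes of this pathway tested 2 rose and 2 fell, with a median of -0.014. Lgmn and Ctsl, which are cysteine proteases of the endosome, rose by 1.23 ± 0.10 and 0.78 ± 0.15, and Ifi30, a thiol reductase of the same compartment, fell by 0.35 ± 0.08. Of 25 MHC class I genes tested 1 rose and 6 fell, with 1 fall without either fl/fl library, and of 24 interferon-stimulated genes 1 rose and 4 fell. Of all genes 16.4% were called, and nothing is read from the counts of these 3 lists.

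The 6 genes of the rule had a median log2 fold change of 0.50 between genotypes, given as a description since the rule used them and the libraries differed in depth. Ccl9 overlapped between the genotypes, with IEC-KO 2 under both fl/fl libraries. Of the genes outside the rule named above, Wnt3 rose by 0.65 ± 0.11, Ephb3 by 1.10 ± 0.11 and Cd24a by 0.68 ± 0.08, with no overlap between the genotypes. Kit had a log2 fold change of 0.27 ± 0.11 and was not called (edgeR adjusted p = 0.0828). Ccl6 had one of -0.0069 ± 0.08 (edgeR adjusted p = 0.972).

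The last question was whether the genotypes differed more, or less, in the Ccl9 Mt3 cells than in the other cells under the alpha-defensin limit of the same libraries. An interaction term with library as a block was tested in 11528 genes, and 340 were higher (2.95%) and 358 lower (3.11%), together 6.05%. Without fl/fl replicate 1, fl/fl replicate 2 and IEC-KO replicate 2 the higher ones numbered 199, 95 and 198. Goblet genes had lower interactions in 27 of 29 and higher in 0, with a median of -0.47. With cells thinned 6 of 29 were lower, with a median of -0.29. The share of mucus-rich cells among those other cells differed between the genotypes, as given above, and against the mucus-rich cells alone 9 of 29 were lower and 2 higher, with a median of -0.14. Muc2 shows the pattern: it stood at 3747, 3419, 5833 and 6003 CPM in the other cells, a larger gap between genotypes than in the Ccl9 Mt3 cells (interaction -0.44 ± 0.06, edgeR adjusted p = 2.45e-06).

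For the class II genes the interaction was higher in 5 of 7 and lower in 0, with a median of 0.51. Cd74 overlapped between the genotypes in the Ccl9 Mt3 cells and was lower in both IEC-KO libraries in the other cells (interaction 0.51 ± 0.06, edgeR adjusted p = 3.54e-07). Against the mucus-rich cells alone 4 of 6 were higher, with a median of 0.37. With cells thinned 1 of 6 was called, with DESeq2 1 of 7, and without either fl/fl library 3 of 7. Of 38 ATF4 targets 10 had lower interactions and 0 higher, with a median of -0.18 beside 0.031 over all genes, and 5 were lower without fl/fl replicate 2. Against the mucus-rich cells alone 4 of 37 were lower, with DESeq2 3 of 38 and with cells thinned 1 of 36. Trib3 and Chac1 were not among them, with interactions of -0.071 ± 0.60 and -0.28 ± 0.36 (edgeR adjusted p = 0.979 and 0.803). Mt1 stood at 259.4, 263.6, 980.3 and 968.8 CPM in the other cells, and its interaction of 0.061 ± 0.05 was not called (edgeR adjusted p = 0.635). Retnlb had an interaction of 0.36 ± 0.13 (edgeR adjusted p = 0.118).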

How the data were processed

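Raw UMI counts per gene and cell were used as deposited. Per the labels the authors made these counts from 10x 3′ v2 libraries, and the submitters' processing notes name Cell Ranger 2.1.1 and mm10. All deposited barcodes of the 4 libraries were kept. The members and the gene lists were chosen with earlier results of these data known, and the mucus limit and the 1.5-fold call were set after values were seen. UMIs were summed per library and class. Genotype was tested with edgeR 4.0.16 (quasi-likelihood, TMM scaling, filterByExpr, Benjamini-Hochberg adjustment over all genes tested), and the interaction with library as a block. Class comparisons had no test and used a pseudocount of 1 CPM. Named genes were the 10 largest rises and falls (genotype), the genes called by size (classes) and the 5 largest interactions in each direction at a mean of at least 20 CPM. On simulated counts the genotype test recovered 81% of 2-fold and 96% of 4-fold changes over 10909 genes, with 11 false calls. The interaction recovered 65% and 87% over 11528 genes, with 5. The simulated counts were drawn independently, with the same dispersion for all genes and no shared library effect. These figures therefore do not measure the error on the real counts. Doublets were marked by nearest neighbours among simulated doublets at 0.8% per 1000 cells and left out only as an alternative (106, 83, 801 and 744 cells, of which 2, 0, 197 and 186 were Ccl9 Mt3 cells). Total UMIs were 113529509, 119339206, 87922473 and 127094508. Alternatives changed the rule's limits, the depth of cells, the scaling, the filter, the test (DESeq2 1.42.0), the pairing and the libraries. Sequences are RefSeq promoter windows. Some genes that met these rules are not reported here.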

Additional observations from a re-analysis of the deposited data

Results flagged for a closer look

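10 genes were picked out because the genotype difference in the Ccl9 Mt3 cells differed from that in the other cells under the alpha-defensin limit by a test of the difference itself (edgeR interaction, log2, with library as a block). Higher interactions were found for Sst, the somatostatin gene (1.15), Reg1, a regenerating lectin (0.88), Sox4, a progenitor transcription factor (0.79), Cth (0.78) and Fabp6, the ileal bile acid binding protein (0.74). Sst stood at 18.3, 25.4, 91.5 and 34.0 CPM in the Ccl9 Mt3 cells and at 33.9, 122.9, 108.5 and 71.1 CPM in the other cells, so it rested on IEC-KO 1 within the former and was uneven between the fl/fl libraries in the latter. Against mucus-rich cells only, Cth turned to -0.46 and Fabp6 to -0.051. Without fl/fl replicate 2 the Sst interaction was 0.25 and that of Reg1 0.33. Sox4 stood at 30.5, 31.0, 23.6 and 26.8 CPM against 47.0, 69.6, 26.6 and 28.3 CPM, with the larger genotype gap in the other cells.

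Lower interactions were found for Pyy, the peptide YY gene (-1.55), Ghrl, the ghrelin gene (-1.12), Hsd17b2, a steroid dehydrogenase (-0.97), Rbp4, a retinol carrier (-0.85), and Stxbp6, a regulator of vesicle fusion (-0.84). Pyy stood at 12.4, 67.9, 42.1 and 114.7 CPM in the Ccl9 Mt3 cells, where the libraries of each genotype were far apart, and without fl/fl replicate 2 its interaction was 0.079. Ghrl stood at 54.4, 65.4, 78.0 and 43.3 CPM in the Ccl9 Mt3 cells and at 23.1, 35.0, 75.0 and 50.3 CPM in the other cells. Hsd17b2 stood at 24.7, 21.9, 22.4 and 30.0 CPM against 26.9, 29.2, 62.4 and 62.8 CPM. The Rbp4 interaction turned to 0.56 with cells thinned. For Ghrl and Hsd17b2 the genotypes did not separate in the Ccl9 Mt3 cells and did in the other cells. The part of hormone cell RNA in these values was not tested.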

How the results depend on the processing

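Calls between genotypes in the Ccl9 Mt3 cells (926 higher, 868 lower) were 410 and 336 with at least 5 of the 6 genes, 101 and 84 with cells thinned, 415 and 310 with DESeq2, and 764 and 563 at the common lower limit of 9670 UMIs. With library size alone they were 528 and 1829, and the median over all genes moved to -0.13. Leaving out 1 library gave 548 to 972 higher and 446 to 827 lower. The interaction (340 higher, 358 lower) gave 104 and 162 with at least 5 genes, 171 and 509 without the excluding genes, 8 and 34 thinned, 158 and 254 without doublets, 21 and 111 with DESeq2 and 82 and 119 against mucus-rich cells only, an alternative added after seeing the data. It gave 232 and 508 with TMM set without alpha-defensin and ribosomal genes, and 95 to 291 higher and 260 to 445 lower without 1 library. The share difference of -6.33 percentage points turned to 4.89 with cells thinned and to 14.3 at the common lower limit, and ranged from -9.82 to -2.84 without 1 library. The class call of 5 higher and 9 lower became 9 and 87 with no minimum share of cells, 20 and 85 at 1.5-fold and 10% of cells, and had 1 lower against mucus-rich cells. Single values turned for Cth (-0.46) and Fabp6 (-0.051) against mucus-rich cells, for Pyy (0.14) and Rbp4 (0.56) in the interaction and H2-Aa (-0.062) between genotypes with cells thinned, and for Pyy without fl/fl replicate 2 (0.079, with -2.62 to 0.079 over the libraries left out). For the thinned cells and the stricter rule fewer cells were summed, and for the other changes the cause was not tested.

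Over 45 single values and 671 alternatives, 600 kept their direction and side of the threshold, 58 lost the call, 7 gained it and 6 turned. Of the cycling list 10 to 16 genes fell under every alternative, and of the ATF4 list 24 to 36 rose. With the replicate number as a block 1115 genes were higher and 1114 lower. The numbers pair nothing in the labels, and the differences between replicates 1 and 2 correlated at r = 0.0425 over 10909 genes between the genotypes. 2 libraries per genotype, and shallower IEC-KO cells, limit every comparison.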

Other observations

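Further secretory gene lists moved in both directions between genotypes, and 16.4% of all genes tested were called. Of 36 genes of protein folding and secretion in the endoplasmic reticulum 6 rose and 3 fell, with a median log2 fold change of -0.019. Of 26 genes of mucin assembly and glycosylation 3 rose and 6 fell, with a median of -0.15. Of 25 regulators of the secretory lineage 6 rose and 3 fell, with a median of -0.031. Costimulatory genes, which antigen presenting cells use beside class II, were too low to test for most of the list, and of 4 tested 0 were called with edgeR. Of 15 genes linked to dissociation stress 3 rose and 0 fell. Of 10 alpha-defensin genes tested 3 rose and 6 fell, with a median of -0.42. Defa17 rose and stood at 3061, 3232, 4835 and 6264 CPM, while Defa21 fell.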
